A study of Mus musculus with 4 samples.

Results

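Of 55274 regions of open chromatin in mouse fetal liver, 778 had a peak in both libraries from Hemgn knockout livers and in neither library from wild-type livers, and are called KO-only here. They are 1.41% of all regions and 2.46% of the 31601 regions with a peak in both knockout libraries. The 4 libraries were made by ATAC-seq from livers at embryonic day 14.5, 2 from wild-type (WT) mice and 2 from Hemgn knockout (KO) mice; strain, sex and the kind of KO allele are not stated in the labels. All 4 were whole fetal liver cells treated by the Omni-ATAC method, with no sorting of cell types named. Nothing in the labels ties the replicates to different embryos or litters, so differences between them may be technical. Members were chosen by merging the 4 peak lists on chromosomes 1 to 19 and X wherever peaks shared at least 1 bp. Presence of a peak is the measure that chose them, so their presence, fold and rank in the KO libraries are given as a description, with no test. A region without a WT peak is one where the peak caller made no call in WT, which does not show that its chromatin was closed there.

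ATAC-seq uses a transposase that inserts sequencing adapters where DNA is free of nucleosomes, so peaks mark accessible DNA such as active promoters and enhancers. In the midgestation embryo, red cells are made chiefly in the liver, and erythroid precursors make up most of its cells. Hemogen, the product of Hemgn, is found in the nuclei of hematopoietic cells. The title of the series names its cooperation with BRG1, the ATPase of the BAF complex, which slides and ejects nucleosomes. The question here is which places carried peaks only when hemogen was missing. No KO-only region lay within 50 kb of Hemgn itself, where 11 of 15 regions had a peak in every library. Among all 55274 regions, 1.41% were KO-only and 27465 had a peak in every library. With so low a share, 15 regions are too few for the absence to say anything about this locus. Boundary peaks of 10 of 12 erythroid marker genes were found in all 4 libraries; Gata1 had none and Epor had none in KO replicate 1.

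Sequence was read only for members at gene starts, a small part of all members, and does not stand for the rest. In the RefSeq promoter table of the mouse assembly GRCm38.p6, 40 KO-only regions (5.14%) overlapped the promoter window (250 bases before to 50 after a start) of 42 genes. Regions in all 4 libraries did so in 35.6%, and in 9.42% when weighted to the ranks of KO-only regions. Of these 42 windows, 22 had the KO summit within 100 bp of the start. Apoc4 and Gm44805 have the same window, which is counted for each gene. No source used here names the build of the lists, and they were read as GRCm38. Printed here are the 250 bases before the start, 5′ to 3′, with the bases inside the KO-only region in capitals. The first set holds the 3 of highest rank: Nat8f4 (an N-acetyltransferase gene), Eps8l1 (an actin regulator of the EPS8 family) and Lrrc3b (a leucine-rich repeat gene).
Nat8f4, chr6:85904939-85905188, minus strand: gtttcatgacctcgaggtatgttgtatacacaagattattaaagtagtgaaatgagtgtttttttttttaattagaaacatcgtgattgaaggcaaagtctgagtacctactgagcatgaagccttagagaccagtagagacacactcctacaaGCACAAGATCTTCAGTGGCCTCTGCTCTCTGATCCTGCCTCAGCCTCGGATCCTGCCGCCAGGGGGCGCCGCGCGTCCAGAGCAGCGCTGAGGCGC
Eps8l1, chr7:4460447-4460696, plus strand: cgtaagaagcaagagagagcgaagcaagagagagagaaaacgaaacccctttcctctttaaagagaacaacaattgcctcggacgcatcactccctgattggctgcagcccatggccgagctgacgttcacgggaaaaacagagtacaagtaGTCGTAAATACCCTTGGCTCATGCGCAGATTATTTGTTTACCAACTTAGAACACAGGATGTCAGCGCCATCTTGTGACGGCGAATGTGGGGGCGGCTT
Lrrc3b, chr14:15438988-15439237, minus strand: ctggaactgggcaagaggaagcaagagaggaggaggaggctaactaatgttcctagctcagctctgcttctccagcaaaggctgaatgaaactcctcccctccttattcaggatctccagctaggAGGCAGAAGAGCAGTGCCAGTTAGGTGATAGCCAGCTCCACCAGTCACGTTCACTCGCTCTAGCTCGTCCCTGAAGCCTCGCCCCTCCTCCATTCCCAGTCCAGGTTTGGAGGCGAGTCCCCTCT

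The next set holds 3 genes of lymphocytes: Cd244a, a receptor of natural killer cells, Blnk, the adaptor of the B cell receptor, and Lck, the tyrosine kinase of the T cell receptor.
Cd244a, chr1:171558943-171559192, plus strand: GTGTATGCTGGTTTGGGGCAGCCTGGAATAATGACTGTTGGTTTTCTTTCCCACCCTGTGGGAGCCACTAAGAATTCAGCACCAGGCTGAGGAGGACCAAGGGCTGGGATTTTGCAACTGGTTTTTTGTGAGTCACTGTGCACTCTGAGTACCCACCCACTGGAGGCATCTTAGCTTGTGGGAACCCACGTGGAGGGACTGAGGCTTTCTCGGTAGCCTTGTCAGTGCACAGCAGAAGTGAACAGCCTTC
Blnk, chr19:40994222-40994471, minus strand: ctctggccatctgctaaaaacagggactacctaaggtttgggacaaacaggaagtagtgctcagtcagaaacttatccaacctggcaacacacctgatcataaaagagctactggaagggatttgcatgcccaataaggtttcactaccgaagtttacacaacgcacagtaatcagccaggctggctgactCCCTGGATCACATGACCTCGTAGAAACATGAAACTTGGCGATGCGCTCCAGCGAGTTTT
Lck, chr4:129573642-129573891, minus strand: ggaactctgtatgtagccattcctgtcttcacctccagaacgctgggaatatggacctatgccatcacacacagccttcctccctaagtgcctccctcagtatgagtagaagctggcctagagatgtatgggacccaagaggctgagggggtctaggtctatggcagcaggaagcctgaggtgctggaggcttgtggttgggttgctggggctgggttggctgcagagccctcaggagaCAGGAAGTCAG

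The last pair, Ifitm3, an interferon-induced membrane protein gene, and Hba-a2, an adult alpha globin gene, are the 2 printed promoters that hold TGATAA, a form of the site of GATA factors, inside the KO-only region. The word starts 235 bases before the Ifitm3 start and 186 bases before the Hba-a2 start. Both regions were low in rank (5.36 and 1.94). Of 5 regions named by Hba-a2, 3 had a peak in all 4 libraries.
Ifitm3, chr7:141010745-141010994, minus strand: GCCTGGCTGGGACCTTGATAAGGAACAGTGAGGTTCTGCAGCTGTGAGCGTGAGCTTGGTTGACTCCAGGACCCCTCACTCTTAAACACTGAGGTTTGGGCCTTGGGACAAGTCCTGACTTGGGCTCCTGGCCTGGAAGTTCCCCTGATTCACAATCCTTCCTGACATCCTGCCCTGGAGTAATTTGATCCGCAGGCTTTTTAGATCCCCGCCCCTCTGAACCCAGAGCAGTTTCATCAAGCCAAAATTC
Hba-a2, chr11:32296242-32296491, plus strand: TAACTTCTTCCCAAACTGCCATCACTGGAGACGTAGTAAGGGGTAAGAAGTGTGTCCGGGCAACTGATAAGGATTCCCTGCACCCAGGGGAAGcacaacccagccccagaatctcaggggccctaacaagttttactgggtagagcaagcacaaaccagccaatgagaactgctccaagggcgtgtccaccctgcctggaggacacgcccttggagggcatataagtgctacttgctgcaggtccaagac

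The peak covered all 250 printed bases at Cd244a and Ifitm3, and between 11 (Lck) and 125 (Lrrc3b) of them at the other 6. AGATAA, searched on both strands, stood in 2 of the 42 windows (4.76%), against 9.68% of all 21044 windows in the table. Promoters overlapped by regions in all 4 libraries had it in 9.45%, weighted to the ranks of KO-only regions, as explained with the ranks. TGATAA, searched likewise, stood in 3 (7.14%), against 7.51% and 5.58%. Either word was held by 5 windows (11.9%), against 15.8% of all windows. Beside Ifitm3 and Hba-a2 these were Eps8l1, with TGATAA 17 bases after the start, and Ankrd65 and Mpped2 with AGATAA, which in Mpped2 lay outside the KO-only region. The G and C content of the 42 windows had a median of 55.0%, from 43.3% to 82.3%. Promoters overlapped by regions in all 4 libraries had 62.3%, and 59.7% when weighted to the ranks of the KO-only regions. GGGCGG, the core of the GC box that SP factors bind, stood in 14 of the 42 windows (33.3%), against 46.7% of all windows and 55.9% of those in all 4 libraries at the same ranks. The 34 promoter windows of WT-only regions were near the KO-only ones in both measures, with GGGCGG in 35.3% and a median G and C content of 55.7%. CACCC, the core of sites for KLF factors, stood in 29 (69.0%), against 59.8% of all windows and 69.3% of those in all 4 libraries at the same ranks. The E-box CANNTG stood in 26 (61.9% against 69.0%), CCAAT in 16 (38.1% against 38.5%), TGTGGT of RUNX factors in 5 (11.9% against 14.8%), TGANTCA of AP-1 factors in 3 (7.14% against 7.04%), GAGGAAGT of ETS factors in 2 (4.76% against 3.15%) and TGACGTCA of CREB factors in 0 (against 2.26%). A match is only a run of letters in these windows and was not tested as a binding site.

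Most KO-only regions were small peaks close to the lowest that a list could hold. For each library, the number of fragments at a summit and the background there were recovered from the deposited fold and −log10 p, for all 778 members in both KO libraries. KO replicate 1 had 9 to 186 fragments at the members' summits with a median of 14, and KO replicate 2 had 12 to 241 with a median of 19. At the most frequent background, the lowest peak called in these libraries had 9 and 12 fragments. The median fold over background was 3.73 in KO replicate 1 and 3.71 in KO replicate 2, against list medians of 5.90 and 5.42. The typical member thus stood little above the lowest call in each KO list.

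Rank here is the lower of a region's within-list percentiles of fold in the 2 KO libraries, where 100 is the highest peak of a list. The median rank of KO-only regions was 15.5 (quartiles 7.41 and 23.8, range 0.0116 to 86.5). Regions in all 4 libraries had a median rank of 59.9. Ranks of 25 or more were reached by 172 members (22.1%) and ranks of 50 or more by 28 (3.60%). Since rank and place go together, features of members are set beside those of the 27465 regions in all 4 libraries weighted to the same shares of 10 rank classes.

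**Figure D1:**
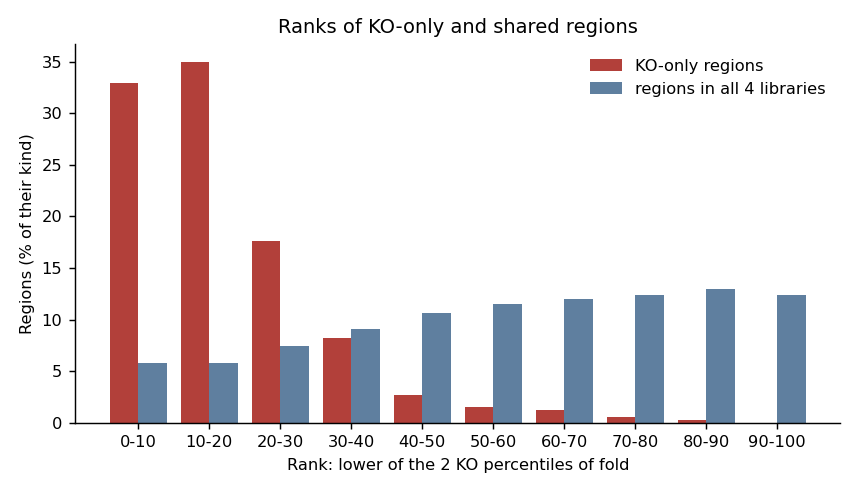
Share of regions (%) in each class of 10 rank percentiles, for the 778 KO-only regions and the 27465 regions with a peak in all 4 libraries; rank is the lower KO percentile of fold. KO-only regions fill the 2 lowest classes with 32.9% and 35.0% of their number, where shared regions have 5.78% and 5.83%.

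The 2 KO libraries did not place members at the same height. Percentiles had a median of 18.3 in KO replicate 1 and 22.8 in KO replicate 2, and 468 members (60.2%) stood higher in KO replicate 2. Shared regions at the same ranks had medians of 16.6 and 28.4, so the difference was not particular to members. The percentiles were within 10 points of each other in 387 members. Almost every member, 774 of 778, was a single peak in each KO library.

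**Figure D2:**
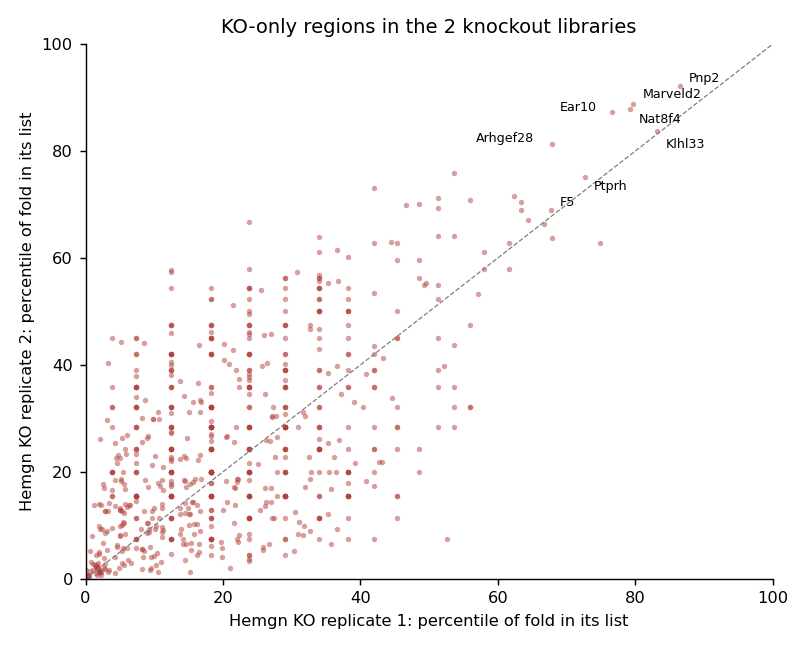
Within-list percentile of fold of each KO-only region in KO replicate 1 (horizontal) and KO replicate 2 (vertical), 1 point per region, with the line of equal percentiles and the 8 regions of highest rank named. Points crowd in the lower left, and the Pnp2 region stands highest at 86.5 and 92.2.

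What a WT list could have held differed between the WT libraries, whose backgrounds were 5.67 (replicate 1) and 2.29 fragments (replicate 2), against 2.49 and 3.8 in the KO libraries, a 2.48-fold range. The background serves here as a stand-in for depth. At these backgrounds the lowest fold called was 2.40 in WT replicate 1 and 3.03 in WT replicate 2. Both KO folds were above the first of these values in 744 members (95.6%) and above the other in 594 (76.3%). Fold depends on depth and local background, so this sets members beside what could be called in WT and does not compare heights. Both KO folds were above the median fold of WT replicate 1 in 38 members (4.88%), and above that of WT replicate 2 in 18 (2.31%).

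Most KO regions that lacked a peak in 1 WT library had one in WT replicate 1. Of the regions with peaks in both KO libraries, 27465 (86.9%) had a peak in both WT libraries, 3196 (10.1%) in WT replicate 1 alone and 162 (0.513%) in WT replicate 2 alone. Without WT replicate 1 the number of KO-only regions was 3989, and without WT replicate 2 it was 941. Asking for a peak in only 1 KO library gave 4747 without KO replicate 1 and 2538 without KO replicate 2. In the opposite direction, 1218 regions (2.2% of all regions and 3.82% of those with both WT peaks) were WT-only, with peaks in the WT libraries alone; their rank is taken from the 2 WT lists in the same way, and its median was 16.05. Regions called in a single genotype were thus low in rank in either direction. With lists cut to equal length the KO-only number was 1022 by fold and 1057 by q, and 408 (52.4%) and 316 (40.6%) of the 778 were among them.

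The strongest member lay on chromosome 14 at the boundary of Pnp2 (chr14:50955958-50956864), which encodes a purine nucleoside phosphorylase, an enzyme of purine salvage. Its summit had 128 fragments over a background of 8.23 in KO replicate 1 and 211 over 13.0 in KO replicate 2, folds of 13.98 and 15.1. No peak was called there in either WT library, and the nearest WT peak was 11.0 kb away. A smaller member lay 1.66 kb further on, inside Pnp2 (chr14:50958519-50958957, 38 and 55 fragments, rank 27.2). Of the 3 regions named by Pnp2, 2 were KO-only and 0 were in all 4 libraries.

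Members of ranks from 72.7 to 83.1 followed. A region 6.79 kb from Klhl33, a kelch-like gene also on chromosome 14 (chr14:50903967-50904596), had 52 and 64 fragments in KO replicates 1 and 2. A region 1.73 kb from Marveld2, which encodes tricellulin of tight junctions (chr13:100594077-100594650), had 40 and 64. The Nat8f4 region (chr6:85904487-85905034), whose promoter is printed among the sequences, had 46 and 71. These 3 stood far above the lowest calls of 9 and 12 fragments in both KO libraries, and the nearest WT peaks were 5.89 to 10.2 kb away. The summit of the Nat8f4 region lay 64 bp from a start in the promoter table but 4.44 kb from the ends of the gene in the gene table, so it counts as inside the gene. A region 1.66 kb from Ear10 (chr14:43925121-43926056), a ribonuclease gene of eosinophils, had 50 and 73 fragments, with the nearest WT peak 44.9 kb away. A further region 9.62 kb from Ear10 (22 and 24 fragments, rank 47.5) was also KO-only. A region 9.97 kb from Ptprh, a receptor tyrosine phosphatase gene (chr7:4613854-4614341), had 33 and 43 fragments. Nat8f4 and Ear10 belong to multigene families with near-identical copies, where the placement of reads is uncertain.

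Ranks from 62.3 to 67.8 held 9 members. The region named by Arhgef28, the gene of a guanine nucleotide exchange factor, 120 kb away (chr13:97778512-97779695), had 60 and 133 fragments. The region 4.79 kb from F5, the gene of coagulation factor V made by hepatocytes (chr1:164224632-164225119), had 29 and 37. The region named by Bmp4, a bone morphogenetic protein gene 146 kb away (chr14:46535906-46536795), had 85 and 148 fragments over backgrounds of 9.22 and 18.99. Its local background was well above those of the libraries (2.49 and 3.8), and a WT peak lay 2.84 kb away. A smaller member (chr14:46530555-46530888, 13 and 28 fragments, rank 23.8) lay 5.02 kb from it. The region inside Sugct, a coenzyme A transferase gene (chr13:17027704-17028974, 36 and 64 fragments), was farthest from any WT peak among the 25 of highest rank, at 665 kb. Regions inside Vps35l, a subunit gene of the retriever complex (52 and 62), and Elmo1, a partner of DOCK proteins in Rac activation (32 and 65), followed, with regions by Shcbp1l (26 and 44), Dhrs2 (26 and 37) and Atg7 (35 and 32). Atg7 encodes the activating enzyme of autophagy, and its region lay 28.9 kb outside the gene. In Atg7 alone of these 9, KO replicate 1 had more fragments than KO replicate 2.

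The 25 include 2 of 5 members tied at a rank of 51.3, and Hs2st1, Adgrl2 and Flt1 name the other 3. The rest of the 25 had ranks from 51.3 to 61.6 and 20 to 25 fragments in KO replicate 1 and 29 to 44 in KO replicate 2. They were named by Rnase2b, a ribonuclease gene of the eosinophil family, Pdia4, a disulfide isomerase of the endoplasmic reticulum, Gm52236, Vwa5a, Irx3, a homeobox gene 213 kb away, Tram1, a translocation protein of the endoplasmic reticulum, Mid1, a ubiquitin ligase gene on the X chromosome, Plet1, Ccser2 (291 kb away) and Mcpt2, a mast cell protease gene. The Mcpt2 region (chr14:56020604-56021607) was the other boundary member among the 25, with 20 and 44 fragments and no WT peak within 76.6 kb. Of the 25, the Bmp4 and Plet1 regions alone had a WT peak within 5 kb (2.84 and 4.15 kb).

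Place by genes was not used by the rule. With gene ends from the RefSeq gene table of GRCm38.p6, a summit was counted as boundary (within 1 kb of either end of a protein-coding gene), inside a gene or outside. The table has no strand, so a boundary may be a start or an end. KO-only regions were at a boundary in 68 cases (8.74%, 95% exact interval 6.85 to 10.9), against 15.5% of regions in all 4 libraries at the same ranks. Outside genes lay 294 (37.8%, 34.4 to 41.3) against 30.2%, and inside genes 416 (53.5%, 49.9 to 57.0) against 54.3%. Intervals cover counting error only, and regions are not replicates. Leaving out each library in turn gave boundary shares from 7.63% to 11.8% for KO-only regions and from 14.5% to 15.4% for the weighted shared regions. Each of these sets still holds all 778 members, so the ranges are no independent support. WT-only regions had 8.05% at boundaries, inside the interval of the KO-only share, so the low boundary share was found in both directions. In the upper 50% of each list the order turned, with 27.8% of 245 KO-only regions at boundaries against 25.2% of shared regions. Of those 245, however, 28 (11.4%) are KO-only in the full lists, since this choice removes WT peaks as well.

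**Figure D3:**
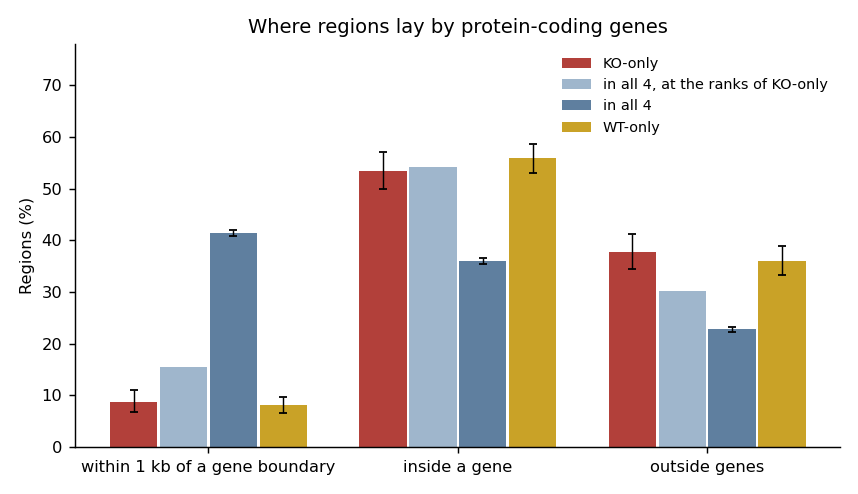
Share of regions (%) within 1 kb of a gene boundary, inside a gene or outside genes, for KO-only, shared (weighted to the ranks of KO-only, and unweighted) and WT-only regions; bars with lines have 95% exact intervals. KO-only regions are at boundaries in 8.74%, below the 15.5% of shared regions at the same ranks and near the 8.05% of WT-only regions.

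Of the 28 members of rank 50 or more, 19 (67.9%) lay outside genes, 7 inside and 2 at boundaries (Pnp2 and Mcpt2). Of regions in all 4 libraries with a rank of 50 or more, weighted to the ranks of these 28, 25.7% lay outside genes, 36.2% inside and 38.1% at boundaries. WT-only regions with a rank of 50 or more lay outside genes in 53.5% of 43 cases. Of the 19 members outside genes, 4 lay within 2 kb of a gene boundary and 12 lay over 10 kb away.

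Members were also narrower and more isolated than shared regions of the same rank. A member may share no bp with a WT peak, so width and distance are not independent of the rule. They are given as a description. Median peak width was 319 bp in KO replicate 1 and 341.5 bp in KO replicate 2, against 427 and 516 bp. WT-only regions had median peak widths of 325.5 bp in WT replicate 1 and 279 bp in WT replicate 2. The median distance to the nearest region in all 4 libraries was 11.3 kb, against 4.91 kb between such regions at the same ranks and 12.01 kb for WT-only regions. The median distance from a summit to a gene boundary was 14.9 kb, against 7.98 kb. Narrow peaks and isolation were thus shared with the WT-only regions, which were chosen by the mirror rule.

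Some members nevertheless lay close to a WT peak. A WT peak stood within 500 bp of 63 members (8.10%), within 1 kb of 113 (14.5%, 95% exact interval 12.1 to 17.2), within 5 kb of 337 (43.3%) and within 10 kb of 512 (65.8%). Of the 113 within 1 kb, 109 had a peak of WT replicate 1 there and 67 of WT replicate 2. WT-only regions had a KO peak within 1 kb in 14.7%. How peaks were joined moved this share: it was 6.16% when peaks up to 500 bp apart were joined and 24.3% with windows around summits. It was 7.83% with lists of equal length by fold and 1.63% in the upper 50% of each list. The former shortens the lists of WT replicate 1 and of both KO libraries, and the latter shortens every list. The set of members changed as well. Of the 1022 regions KO-only with equal length by fold, 408 are KO-only in the full lists, and of the 245 in the upper 50%, 28 are. The cause of the lower shares was not tested.

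Local background divided members into kinds. In 395 (50.8%) the background of the peak was that of the whole library in both KO libraries, with medians of 13 and 18 fragments at the summit. These lay a median of 23.1 kb from the nearest region in all 4 libraries, and 15 of them had a WT peak within 1 kb. In 45 (5.78%) the background was over 3 times that of the library in both KO libraries, and medians were 37 and 56 fragments. Of these, 20 (44.4%) had a WT peak within 1 kb and 9 were at a gene boundary, and their median rank was 1.30. Of the 45, 39 had a rank under 10, but the Pnp2 and Bmp4 regions of highest rank were also among them (86.5 and 66.3).

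Zfpm1, Slc4a1 and Zdhhc19 show this at the low end of the ranks. The region at Zfpm1 (chr8:122282505-122283068), the gene of FOG-1, the cofactor of GATA-1, had 186 and 241 fragments but percentiles of 0.0311 and 0.0581, and a WT peak 319 bp away. The region inside Slc4a1 (chr11:102359279-102359773), the gene of the anion exchanger band 3 of red cells, had 96 and 132 fragments at percentiles of 0.104 and 0.133, with a WT peak 1.20 kb away. The region by Zdhhc19 (chr16:32510481-32510752), a palmitoyltransferase gene, had 105 and 150 fragments and the lowest rank of all members. A WT peak lay 320 bp from it. Just outside the rule were regions with both KO peaks and a very low peak in WT replicate 1 alone: those of Afmid, Rbm38 and Ttc39a had WT percentiles of 0.0418, 0.0543 and 0.0564. The Afmid region had 137 fragments in WT replicate 1, against 78 and 124 in the KO libraries, which differ in depth.

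Among boundary members, the 10 of highest rank went from Pnp2 and Mcpt2 to rank 28.4. Phgdh, which encodes the enzyme of the initial step of serine synthesis (chr3:98313028-98313423), had 18 and 25 fragments, and a WT peak lay 9 bp away. That member was not KO-only when peaks up to 500 bp apart were joined or with windows around summits. Eps8l1 had 18 and 32 fragments and Lrrc3b 17 and 21, with WT peaks 8.90 and 376 kb away. Pappa, a protease gene of the insulin-like growth factor system (15 and 19), Cd244a (15 and 21), the protocadherin gene Pcdhgb6 (14 and 20), the adhesion gene Dscam (14 and 18) and Frrs1l, an assembly factor of glutamate receptors (14 and 18), completed them. Pcdhgb6, Dscam and Frrs1l are best known from neurons, and their peaks were only a few fragments above the lowest calls.

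The members were spread over many genes. Within 100 kb, 681 genes had a member (738 members): 627 had 1, 51 had 2 and 3 had 3. Zfhx3, a zinc finger homeobox gene, had 3 of its 18 regions (ranks 7.41 to 23.8), Mroh1 3 of 7 (9.88 to 18.3) and Arid1b 3 of 45 (1.30 to 10.1). Of genes with 2, those of highest rank were Pnp2, Ear10, Vps35l, Shcbp1l and Atg7. The members of Shcbp1l were 348 bp apart, and those of Vps35l had very unequal ranks (63.7 and 3.85). In all, 40 members (5.14%) lay within 10 kb of another member, and the median distance between neighbours was 456 kb.

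By gene lists of erythroid biology, KO-only regions were few. At 27 erythroid regulators 3 of 295 regions were KO-only (1.02%), at 23 red cell membrane genes 4 of 274 (1.46%), at 24 heme and iron genes 1 of 122 (0.820%) and at 10 globin genes 1 of 28 (3.57%). Against 1.41% of all regions these shares are near the background, and their 95% exact intervals all contain it. The erythroid regulators were Foxo3, a forkhead factor (15 and 17 fragments, rank 22.9), Bcl11a, the repressor of fetal globin (11 and 16, rank 8.14), and Zfpm1. The membrane genes were Xk (16 and 18, rank 18.0), Cd47, the signal against engulfment (14 and 25, rank 5.03), Sptb, erythroid beta spectrin (52 and 75, rank 2.06), and Slc4a1. The region of Slc25a37, mitoferrin, the iron importer of mitochondria, had 37 and 68 fragments at a rank of 0.754. The Hba-a2 region (chr11:32295879-32296334) had 93 and 141 fragments at a rank of 1.94, with a WT peak 1.10 kb away. Hba-a2 has the near-identical copy Hba-a1, so reads may be placed at either. Except for Foxo3 and Xk, all these members had ranks under 10.

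Chromatin and growth genes were alike. At 26 genes of the BAF complex 3 of 167 regions were KO-only (1.80%), all inside Arid1b, which encodes its DNA-binding subunit, with 10 to 32 fragments in KO replicate 1 and 13 to 49 in KO replicate 2. Organelle clearance had 2 of 87 (2.299%, both by Atg7). Apoptosis had 1 of 102 (0.980%, inside the initiator caspase gene Casp9), cell cycle 1 of 123 (0.813%, inside the cyclin gene Ccnd3) and stem and progenitor cells 1 of 117 (0.855%, inside Runx1). Housekeeping genes had 0 of 51, an upper limit of 6.98% by the exact interval. The intervals of all these lists contain 1.41%.

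Of the lists for other cell types, the lymphocyte list alone had an interval that lies above 1.41%. The intervals of granulocytes, endothelium, hepatocytes, megakaryocytes and macrophages contain 1.41%. All lists were chosen with earlier results of these data known, so the lymphocyte interval is no support for a trait of lymphocyte genes. Lymphocyte genes had 3 KO-only of 34 regions (8.82%, 95% exact interval 1.86 to 23.7), all at boundaries, with 17 lists examined. These were Cd79b, a chain of the B cell receptor (chr11:106314126-106314623, 16 and 19 fragments, rank 25.4), Blnk (chr19:40993964-40994280, 14 and 17, rank 22.8) and Lck (chr4:129573355-129573652, 15 and 18, rank 5.81). Among 4 defining lymphocyte markers, Cd79b and Blnk had a boundary peak in the KO libraries alone, and Cd79a and Cd3e had none in any library. The nearest WT peaks to these 3 regions were 3.39 to 4.53 kb away. Whether lymphoid cells differed in number between the livers was not tested, and in whole tissue more cells of a type and more open chromatin per cell cannot be told apart. The Cd79b and Blnk calls were lost with lists of equal length by q, and the Lck call with equal lengths by fold or by q.

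Endothelial and stellate cell genes had 4 of 94 (4.26%, 1.17 to 10.5). Flt1, a receptor of vascular endothelial growth factor, had 2: a region inside the gene (chr5:147657939-147658485, 20 and 33 fragments, rank 51.3, no WT peak within 66.6 kb) and a region 26.9 kb outside it (11 and 17, rank 12.5). Pecam1, an adhesion molecule of endothelium (12 and 17 fragments, rank 18.3), and Pdgfra, a growth factor receptor of mesenchyme (12 and 13, rank 5.72), had 1 each. Of 4 defining endothelial markers, 1 had boundary peaks in every library, and Pecam1 had one in the KO libraries alone. The other 2, Cdh5 and Tek, had a boundary peak in at least 1 library of each genotype. Granulocyte and eosinophil genes had 2 of 25 (8%), both by Ear10. Their 5 defining markers included S100a8 and Camp with a boundary peak in the WT libraries alone, Mpo with one in KO replicate 2 alone, and S100a9 and Elane with none.

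Hepatocyte genes had 3 of 113 (2.65%): F5, and 2 regions 34.6 and 36.9 kb from Dlk1, a surface protein of hepatoblasts. Megakaryocyte genes had 2 of 53 (3.77%), inside the integrin gene Itgb3 (14 and 23 fragments) and the ETS factor gene Fli1 (11 and 24). Macrophage genes had 0 of 30, an upper limit of 11.6%. The part of cell composition in any of these was not tested. Over all lists, 37 of 1740 regions at 338 genes were KO-only, against 778 of all 55274 regions (1.41%). The pooled count includes 8 of 49 regions of a chromosome 14 list made with its strongest members known, so it is no support for any trait.

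**Figure D4:**
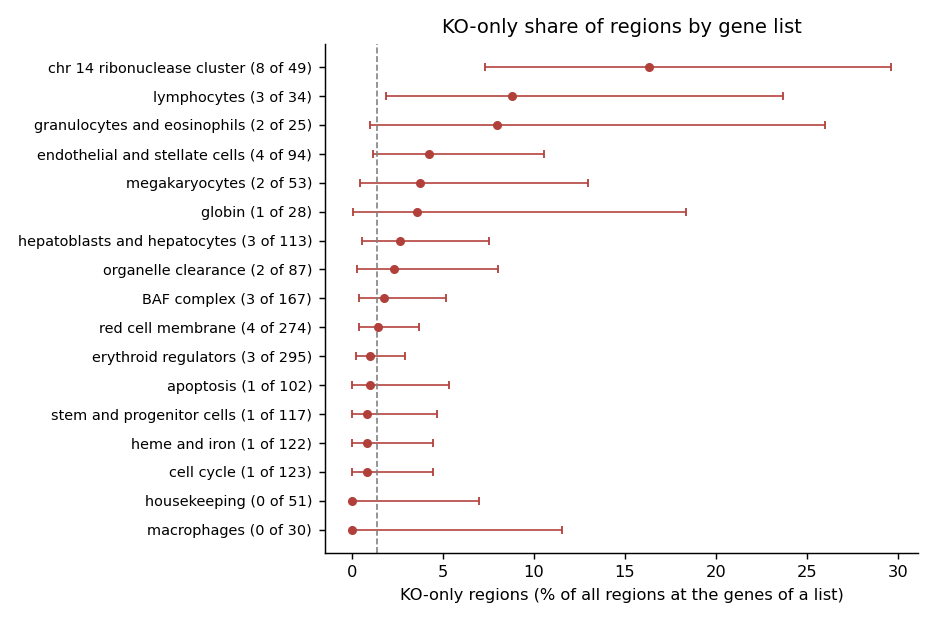
Share of regions (%) that were KO-only at the genes of each of 17 lists, with 95% exact intervals that cover counting error only; the dashed line is the 1.41% of all regions. Erythroid lists sit near the line, and lists of few regions have wide intervals. The chromosome 14 list (8 of 49) was made after its members were known, and all lists were chosen with earlier results of these data known.

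Chromosome 14 held 46 members, 5.91% of all members, against 3.02% of regions in all 4 libraries at the same ranks. KO-only regions were 2.45% of its 1874 regions, and their median rank was 24.02. Of the 28 members of rank 50 or more, 8 (28.6%) were on chromosome 14, 4 on chromosome 13, 3 each on chromosomes 1 and 6, and 3.25% of shared regions of such rank were on chromosome 14. The comparison was added after the values had been seen. WT-only regions of such rank were on chromosome 14 in 9 of 43 cases, so it led in both directions. Leaving out a library gave chromosome 14 shares from 3.69% (without WT replicate 1) to 5.53% of KO-only regions, all above the 3.04% to 3.19% of shared regions. These sets too hold all 778 members and are no independent support. Without WT replicate 1, 157 KO-only regions had a rank of 50 or more, and 16 of them were on chromosome 14; without KO replicate 1 it was 21 of 188, without KO replicate 2 it was 11 of 45, and without WT replicate 2 it was 8 of 31.

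**Figure D5:**
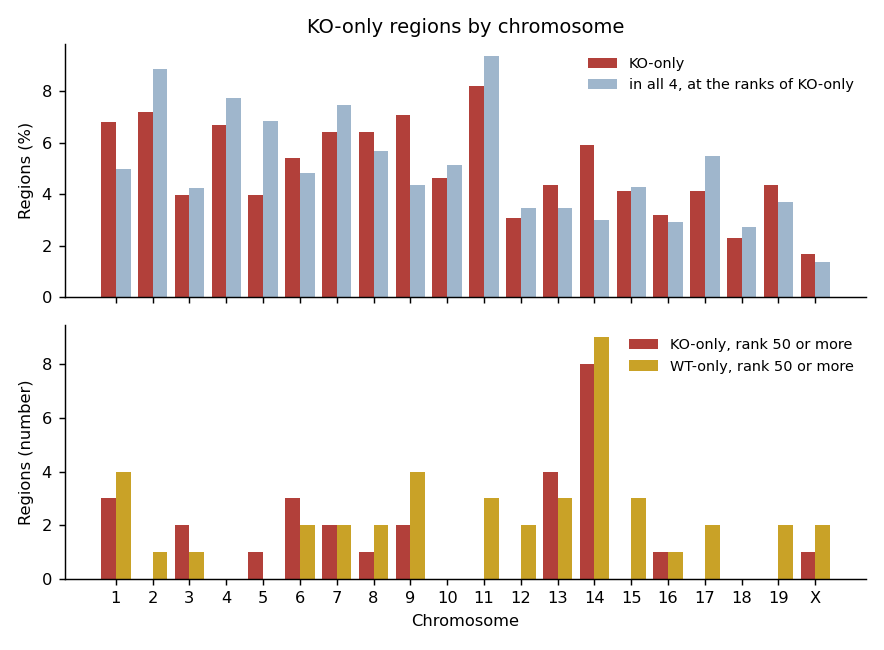
Top: share (%) of KO-only regions and of shared regions at the same ranks on each chromosome. Bottom: number of KO-only and WT-only regions of rank 50 or more on each chromosome; chromosome 14 has 8 KO-only and 9 WT-only regions.

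Within chromosome 14, positions from 40 to 60 Mb held 22 members (2.83% of all members), 7 of them of rank 50 or more. Without weighting to rank, 0.816% of regions in all 4 libraries lay there. The borders of this stretch were chosen with earlier results of these data known, so these shares are no support for it. This stretch had 20 WT-only regions (1.64%), 5 of them of rank 50 or more. A list of the ribonuclease and phosphorylase genes of chromosome 14 and some of their neighbours, made with the strongest members known and so no support for them, had 8 KO-only of 49 regions (16.3%): 2 each by Pnp2 and Ear10, and 1 each by Klhl33, Rnase2b, Tep1 and Ndrg2. Tep1, a telomerase-associated protein gene, had 14 and 28 fragments, and Ndrg2 had 16 and 28. WT-only regions were 5 of the 49. Of 530 windows of 5 Mb, 320 had a member, and the highest numbers were 10 of 162 regions at 50 to 55 Mb of chromosome 14 (6.17%) and 10 of 378 at 95 to 100 Mb of chromosome 11 (2.65%). Members of the former had a median rank of 32.8 and those of the latter 11.8. Ribonuclease genes of this stretch form families of similar copies, and no source used here says how reads were placed among them.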

How the data were processed

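ATAC-seq peak lists of 4 libraries (WT and Hemgn KO, 2 each) were used, 1 list per library, laid out as narrowPeak tables. MACS2 2.2.7.1, Picard 2.21.4, Bowtie2 2.3.5 and SAMtools 1.9 are listed, per the submitters' processing notes; what each did, with which settings and build, is not given in the sources read. The deposited score is 10 times the −log10 q without decimals. The deposited fold is the authors' ratio of fragments at a summit to the local background, with 1 added to both, and −log10 p and −log10 q are the authors' values for each peak. Single peaks are named with replicate numbers that differ from the labels', which were followed.

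Merging, ranks, gene names and weighting were computed with Python 3.11.15, pandas 2.3.3 and SciPy 1.17.1. Lists held 47845 and 34167 (WT) and 35415 and 43005 (KO) peaks on the chromosomes used; read totals were not analysed here. For peaks with a −log10 p under 250, fragments and background were solved from fold and p within a tolerance of 0.001; 99.9936% to 99.9973% had a solution in each list, and the step was tested on simulated data. The recovered background stands for depth only if settings were alike in all libraries.

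The gene table holds 21627 protein-coding genes, of which 17273 have a promoter window, so classes rest on gene boundaries instead of starts. Named are the 25 members of highest rank and all members of each gene list within 100 kb, where up to 3 per list had been planned. Also named are genes with 3 members and the 5 of highest rank with 2, the 10 highest boundary members, and 3 regions on either side of the rule. Promoters, markers and members named as neighbours of others were picked after their values were seen. One lymphocyte marker is not reported here. Members and lists were chosen with earlier results of these data known. No test between genotypes was run, since the rule uses the only readout. Alternatives were the joining of peaks, list lengths, ranking, windows and leaving out each library.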

Additional observations from a re-analysis of the deposited data

How the results depend on the processing

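No paired analysis was possible because the results come from no test between the genotypes. The number of KO-only regions was 245 in the upper 50% of each list, and 941 to 4747 with a library left out. Their median rank was 23.8 with lists of equal length by fold or by q, 54.0 in the upper 50% of each list (a limit set by that choice), 10.2 when ranked by q, and 13.7 to 18.3 with a library left out. The share at gene boundaries was 11.5% with windows around summits, 11.3% with equal lengths by q, 27.8% in the upper 50% of each list and 22.2% with a boundary window of 5 kb (shared regions at the same ranks 39.8%), and 7.63% to 11.8% with a library left out. The share inside genes was 35.5% in the upper 50%, and 53.3% to 58.0% with a library left out. The share with a WT peak within 1 kb was 6.16% with a gap of 500 bp, 19.6% with an overlap of 50%, 24.3% with windows around summits, 7.83% and 10.9% with equal lengths by fold and by q, 1.63% in the upper 50%, 8.10% within 500 bp, and 10.2% to 19.03% with a library left out. The cause of these moves was not tested, beyond the limit named. Among alternatives chosen after seeing the data, 49 regions had a rank of 50 or more with windows around summits, 46 with equal lengths by q and 16 when ranked by q, of which 5 were on chromosome 14; the chromosome 14 share was 4.35% with equal lengths by q. Of the 46 named list and boundary members, 17 were lost with equal lengths by fold, 21 by q and 38 in the upper 50%. Leaving out a library or keeping the upper 50% cannot remove members of rank 50 or more, so their presence there shows no stability. The lowest peaks at the library background had 15 and 9 fragments in WT and 9 and 12 in KO, so absence of a WT call at a member of about that height is no measure of closed chromatin; the part of depth in the calls was not tested.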
